A study of Mus musculus with 4 samples.

Results

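The metallothioneins and the genes that move and sense zinc were followed in mouse adrenal glands 1 h after a glucocorticoid. The 9 genes, Mt1, Mt2, Mt3, Mtf1, Slc30a1, Slc30a5, Slc39a6, Slc39a10 and Slc39a14, were taken by symbol from a table of 54532 gene identifiers, and all 9 had enough reads to be among the 16027 genes tested. Adult male C57BL/6 mice received an intraperitoneal injection of dexamethasone, a synthetic glucocorticoid, at 10 µg per mouse, or of phosphate-buffered saline (PBS) as vehicle, with 5 mice in each group and no genetic modification named in the labels. Right adrenal glands were pooled from 2 or 3 mice per library, which gave 2 libraries per group, and the labels do not say which of them held the larger pool. Levels are given as CPM, read counts relative to library sizes scaled by the trimmed mean of M values (TMM). Each log2 fold change is that of dexamethasone over PBS, ± SE.

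Metallothioneins are small cysteine-rich proteins that bind zinc and copper. The zinc-sensing factor MTF-1, encoded by Mtf1, drives the mouse Mt1 and Mt2 promoters through metal response elements, and glucocorticoids are known to induce both genes in liver and in cultured cells. Transporters of the SLC30 family move zinc out of the cytosol, across the plasma membrane or into organelles, and those of the SLC39 family bring it into the cytosol. Whole adrenal tissue was measured, so fewer cells of a type and less RNA per cell cannot be told apart.

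The coding sequences of Mt1 and Mt2 are shown because the 2 transcripts are alike in make-up yet differed widely in count. They are the coding parts of the GENCODE M21 transcripts of 549 bases (Mt1) and 511 bases (Mt2), plus strand, 5′ to 3′ and without the stop codon, spliced from chr8:94179311-94180190 for Mt1 and chr8:94172848-94173424 for Mt2 (GRCm38). Capitals mark the bases at which they differ.
Mt1: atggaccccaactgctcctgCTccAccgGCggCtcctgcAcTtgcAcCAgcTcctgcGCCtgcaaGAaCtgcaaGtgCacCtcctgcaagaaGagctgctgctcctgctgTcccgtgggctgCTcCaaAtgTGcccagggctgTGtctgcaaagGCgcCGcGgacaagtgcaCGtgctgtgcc
Mt2: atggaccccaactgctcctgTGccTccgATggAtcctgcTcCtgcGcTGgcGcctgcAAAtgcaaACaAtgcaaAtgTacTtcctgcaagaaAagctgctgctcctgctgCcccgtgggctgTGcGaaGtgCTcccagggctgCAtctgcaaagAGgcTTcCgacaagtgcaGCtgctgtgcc
Each holds 61 codons, of which 20 are TGC or TGT, the codons of cysteine. They are identical at 145 of 183 bases (79.2%), and the longest stretch that the 2 whole transcripts share is 20 bases, against sequencing reads of 150 bases.

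The promoters of both genes are shown because metal response elements lie within them. They are RefSeq windows of 300 bases (GRCm38.p6, plus strand), from 250 bases before the transcription start to 50 after it. Capitals mark the core of the metal response element, searched as TGCACNC and TGCGCNC on both strands.
Mt1 (chr8:94178839-94179138): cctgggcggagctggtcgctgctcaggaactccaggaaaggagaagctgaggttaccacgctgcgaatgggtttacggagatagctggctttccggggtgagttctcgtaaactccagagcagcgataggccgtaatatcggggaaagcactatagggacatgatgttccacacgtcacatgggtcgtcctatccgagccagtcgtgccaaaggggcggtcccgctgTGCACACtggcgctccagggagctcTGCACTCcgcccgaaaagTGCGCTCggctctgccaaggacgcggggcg
Mt2 (chr8:94172368-94172667): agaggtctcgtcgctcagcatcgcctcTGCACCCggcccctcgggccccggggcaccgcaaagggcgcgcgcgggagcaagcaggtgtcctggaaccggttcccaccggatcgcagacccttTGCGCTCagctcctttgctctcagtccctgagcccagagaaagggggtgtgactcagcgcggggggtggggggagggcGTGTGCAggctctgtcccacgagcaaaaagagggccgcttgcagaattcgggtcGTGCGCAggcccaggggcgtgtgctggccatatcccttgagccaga
Mt1 held 3 matches and Mt2 held 4, none of them overlapping another. At least 3 matches were present in 1.97% of 32851 promoter windows, at least 4 in 0.517%, and at least 1 in 25.7%. Slc30a1 held 2 matches, Mt3 and Slc30a5 held 1 each, and Mtf1 and both windows of Slc39a10 held 0. The full glucocorticoid response element, AGAACA, any 3 bases and TGTTCT, matched in 0 of the 8 windows found for 7 of the genes and in 3 of all 32851 windows. A single AGAACA on either strand matched once each in Mtf1 and Slc30a5 and in 19% of all windows. No window was used for Slc39a6 and Slc39a14. Bases farther than 250 before a transcription start were not searched, so elements lying there would be missed.

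None of the 9 genes passed the test between dexamethasone and PBS. In edgeR's quasi-likelihood test, adjusted by Benjamini-Hochberg over all genes, 0 of 9 were higher and 0 of 9 lower at an adjusted p of 0.05, where 3.26% of all genes tested were higher and 1.37% lower. DESeq2 also called 0 of 9, against 5.70% of all genes higher and 5.42% lower. It gave no adjusted p for Mt2, so that gene could not be called. By limma-voom 0 of 9 were called, against 3.16% higher and 1.34% lower. In edgeR 1 of 9, Slc39a10, had an unadjusted p under 0.05, which 14.3% of all genes did as higher and 13.1% as lower. The median log2 fold change was −0.0063 over the 9 genes and 0.011 over all genes. Libraries of the groups did not overlap for 4 genes that stood higher after dexamethasone (30.8% of all genes did so) and for 1 that stood lower (29.7%).

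The libraries held 21904510 to 26948588 counts assigned to genes. In the same libraries Fkbp5, a co-chaperone gene of the glucocorticoid receptor that the hormone induces, was 2.36-fold higher after dexamethasone (edgeR adjusted p = 0.0117). Of 3 other known glucocorticoid targets, Zbtb16 and Tsc22d3 rose 3.57-fold and 2.65-fold (edgeR adjusted p = 0.00426 and 0.00457), and Per1 did not pass, at 1.46-fold (adjusted p = 0.165). All 6 marker genes of the adrenal cortex and all 5 of chromaffin cells were present, with summed levels of 33500 to 37200 CPM after dexamethasone, against 48600 to 50100 CPM after PBS for the cortex, and of 8450 to 11100 CPM after dexamethasone, against 7640 to 11700 CPM after PBS for chromaffin cells. The cortex sums were lower in both dexamethasone libraries, and the chromaffin ranges overlapped. Of the cortex markers, Nr5a1 fell (log2 fold change −1.35). The 5 red blood cell markers summed to 137 to 146 CPM after dexamethasone, against 226 to 394 CPM after PBS, with no overlap, and 3 of them, Hba-a1, Hba-a2 and Hbb-bs, fell (adjusted p from 0.0301 to 0.0399). Adipocyte markers summed to 108 to 150 CPM after dexamethasone, against 139 to 168 CPM after PBS, and the 3 kidney markers were at 0 in every library. With 3 markers each, astrocytes summed to 4.54 to 6.07 CPM after dexamethasone, against 4.33 to 5.43 CPM after PBS, and fibroblasts to 304 to 316 CPM after dexamethasone, against 323 to 363 CPM after PBS. Endothelial cells summed to 409 to 450 CPM after dexamethasone, against 386 to 430 CPM after PBS, and macrophages to 89.3 to 91.9 CPM after dexamethasone, against 78.1 to 79.7 CPM after PBS. The part of these levels in the results for the zinc genes was not tested.

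**Figure D1:**
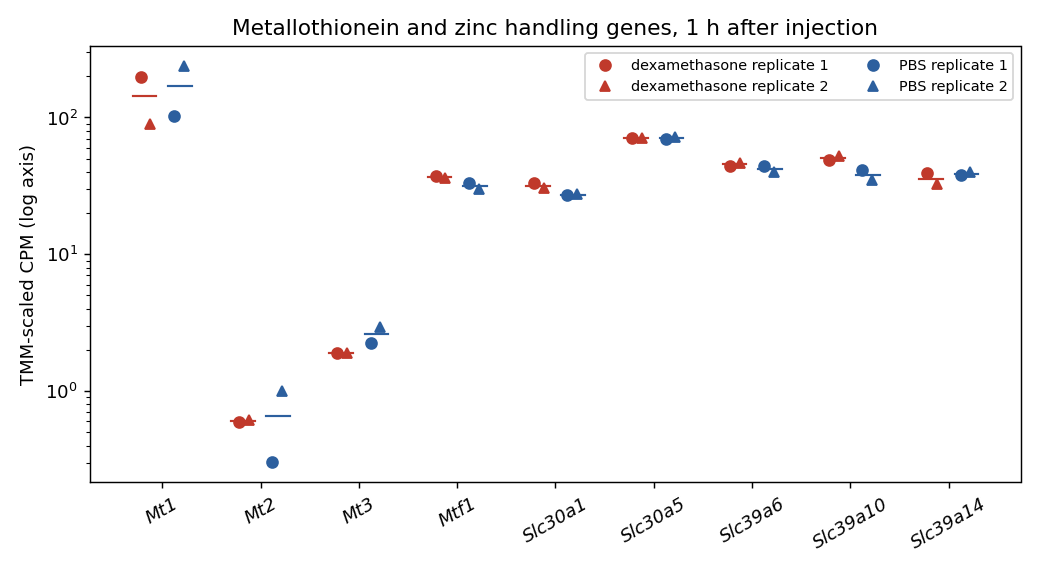
TMM-scaled CPM of each of the 9 genes on a log axis, with dexamethasone libraries in red left of PBS libraries in blue, circles for replicate 1, triangles for replicate 2 and bars at the mean of the 2 libraries. Mt1 spans 89.9 to 239 CPM with both groups overlapping, while the 6 longer genes keep within 26.9 to 72.5 CPM in every library.

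Mt1 (ENSMUSG00000031765, GRCm38 chromosome 8, 94179082 to 94180327) was the most abundant of the 9 genes. It had 198 and 89.9 CPM in dexamethasone replicates 1 and 2, against 103 and 239 CPM in PBS replicates 1 and 2. Within each group the libraries were further apart than the means of the groups, and the groups overlapped. Its mean was 144 ± 76.7 CPM after dexamethasone, against 171 ± 96.1 CPM after PBS (SD, n = 2 each). The log2 fold change was −0.24 ± 0.41 (edgeR adjusted p = 0.739). The 95% interval for the fold ran from 0.443 to 1.61, so these libraries do not tell a fall from a rise within it. The direction and the call both changed with single libraries left out, in fits where 1 group held a lone library that was assumed to vary like the pair of the other group. Mt1 stood at 0.22 without dexamethasone replicate 2, at 0.48 without PBS replicate 2 and at −0.93 without dexamethasone replicate 1, none of which passed. Without PBS replicate 1 it stood at −0.75 and passed (edgeR adjusted p = 0.0231), in a fit that called 10.4% of all genes lower.

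The spread of Mt1 within the groups was wide for a gene with so many reads. Dexamethasone replicate 1 had 2.21 times the level of dexamethasone replicate 2, and PBS replicate 2 had 2.32 times that of PBS replicate 1. The mean of the log2 gaps was 1.18, larger than in 98.3% of all genes tested and in 99.8% of the 2182 genes with a mean of at least 100 CPM. Over all genes the median gap between replicates was 0.191 after dexamethasone and 0.23 after PBS.

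Of the 14248 protein-coding genes tested, the 3 whose centred log2 CPM over the 4 libraries lay nearest to that of Mt1 were Npy, Vgf and Spry3, with root mean square differences of 0.0441, 0.0536 and 0.0903. With only 4 libraries a close match can be found among many genes, and no test was made of it. Npy, the neuropeptide Y gene, had 289 and 127 CPM in dexamethasone replicates 1 and 2, against 158 and 358 CPM in PBS replicates 1 and 2. Vgf, which encodes a secreted neuropeptide precursor, had 34.8 and 17.0 CPM in the dexamethasone libraries, against 19.5 and 46.0 CPM in the PBS libraries. Both were thus high in dexamethasone replicate 1 and PBS replicate 2 and low in the other 2 libraries. Spry3, a Sprouty family gene, was below 1 CPM in every library. By the same measure Mt2 ranked 1276 and Mt3 ranked 2574 in likeness to Mt1. The 5 chromaffin markers summed to 11100 and 8450 CPM in the dexamethasone libraries, against 7640 and 11700 CPM after PBS, the same order within each group with smaller ratios of 1.31 and 1.53. That order was not particular to chromaffin markers. The sums of adipocyte markers (ratios of 1.39 after dexamethasone and 1.21 after PBS), astrocyte markers (1.34 after dexamethasone and 1.25 after PBS) and red blood cell markers (1.07 after dexamethasone and 1.75 after PBS) had it too. Each chromaffin and each adipocyte marker had that order by itself. The astrocyte sum was mostly Gfap, Aqp4 had at most 2 reads per library, and Slc1a2 went the other way after PBS (0.414 and 0.144 CPM in replicates 1 and 2). Of the red blood cell markers, Hba-a1 (48.5 and 51.6 CPM) and Alas2 (2.79 and 5.49 CPM) went the other way after dexamethasone. The part of these markers in the spread of Mt1 was not tested. Short genes as a class had that order too, by the length trend described further on, and its part was not tested either. The cortex, liver, fibroblast, endothelial and macrophage sums were not in that order in both groups, the 3 liver markers with sums of 26.3 and 3.23 CPM in the dexamethasone libraries and 74.6 and 8.22 CPM in the PBS libraries.

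**Figure D2:**
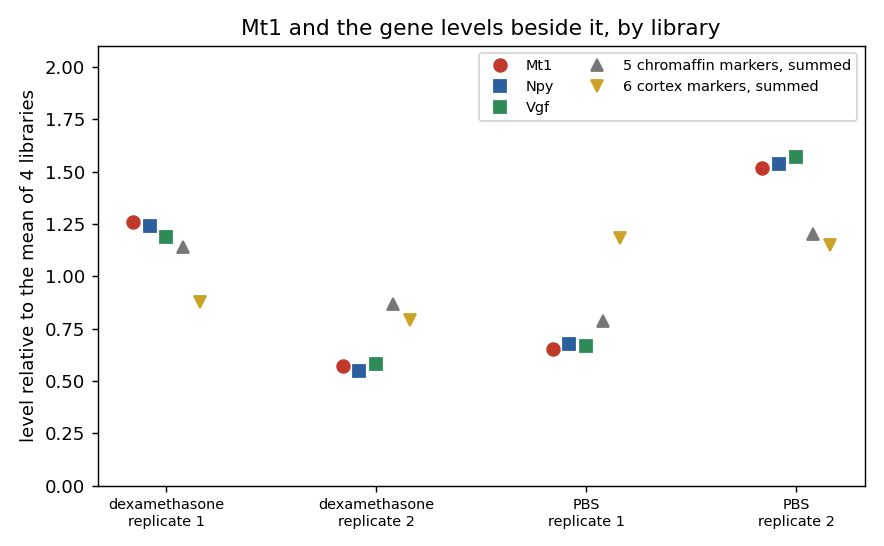
Level of Mt1, Npy, Vgf and the summed chromaffin and cortex markers in each library, each divided by its own mean over the 4 libraries, so that 1 is that mean. Mt1, Npy and Vgf are high in dexamethasone replicate 1 and PBS replicate 2, the chromaffin markers have the same order within each group with a smaller range, and the cortex markers do not.

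Mt2 (ENSMUSG00000031762, chromosome 8, 94172664 to 94173568), the neighbour of Mt1, was counted at only 8 to 21 reads per library. It had 0.595 and 0.618 CPM in dexamethasone replicates 1 and 2, against 0.301 and 1.01 CPM in PBS replicates 1 and 2. The dexamethasone libraries lay between the PBS libraries. Counting error alone gives 95% Poisson intervals of 0.13 to 0.593 CPM and 0.625 to 1.54 CPM for PBS replicates 1 and 2. Its log2 fold change was −0.069 ± 0.61 (edgeR adjusted p = 0.955), and its sign turned under several alternatives.

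The Mt2 count carries a limit that the other 8 genes have to a lesser degree or not at all. Of its 588 listed exonic bases, 432 (73.5%) are shared with Gm45774, an antisense gene on the other strand (chromosome 8, 94170748 to 94173412), and 156 are not. Gm45774 itself had 9 and 6 reads after dexamethasone and 2 and 3 reads after PBS. The sources used here do not give whether counting used strand. Without it, reads of Mt2 and Gm45774 cannot be told apart, and reads that fall on both may have been left out. Divided by the kilobases of the unshared part, the Mt2 count gave 3.89 CPM after dexamethasone, against 4.2 CPM after PBS. Mt1, which shares no exonic base with another gene, stood at 115.7 CPM per kilobase after dexamethasone and 137 after PBS. The unshared bases lie together at the end of Mt2, in a stretch hardly longer than a sequencing read of 150 bases. If reads that touch the shared part were left out, few could lie wholly within that stretch. This division therefore cannot set the level of Mt2 against that of Mt1. The part of the overlap in the low count was not tested. Among the other genes, Mtf1 shares 721 of its exonic bases with 1110065P20Rik (8.09%) and Slc30a1 shares 468 with 1700034H15Rik (8.92%), both antisense, and the remaining 6 share 0.

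**Figure D3:**
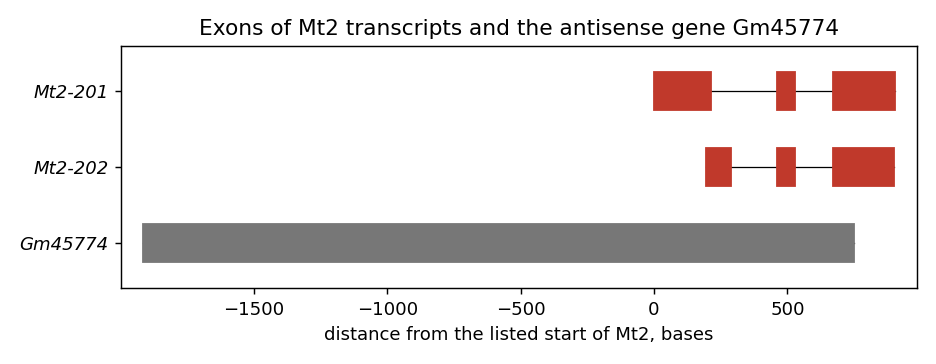
Exons of the Mt2 transcripts (red) and of the antisense gene Gm45774 (grey), by distance in bases from the listed start of Mt2. Gm45774 covers the first and second exons and part of the last, leaving 156 exonic bases of Mt2 outside it.

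Mt3 (ENSMUSG00000031760, chromosome 8, 94152607 to 94154146) encodes a metallothionein best known from brain neurons. It had 1.90 and 1.89 CPM in dexamethasone replicates 1 and 2, against 2.26 and 2.93 CPM in PBS replicates 1 and 2. The dexamethasone libraries were both below the PBS libraries. Its log2 fold change was −0.45 ± 0.32 (edgeR adjusted p = 0.391), and it stayed below 0 without each library in turn, at −0.65 to −0.27, with no call. Mt4, the metallothionein of stratified epithelia and the last gene of this cluster, had 0 reads in all 4 libraries, which allows up to 0.109 to 0.144 CPM per library (3 reads, for counting error only).

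Mtf1 (ENSMUSG00000028890, chromosome 4, 124802104 to 124849800), the zinc sensor gene, had 37.0 and 35.8 CPM in the dexamethasone libraries, against 33.4 and 29.8 CPM in the PBS libraries. Slc30a1 (ENSMUSG00000037434, chromosome 1, 191906767 to 191913247) encodes the zinc exporter of the plasma membrane and is a known target of MTF-1. It had 33.1 and 30.5 CPM after dexamethasone, against 26.9 and 27.4 CPM after PBS. In both genes the dexamethasone libraries stood above the PBS libraries, by a small margin. The log2 fold changes were 0.20 ± 0.15 for Mtf1 (edgeR adjusted p = 0.396) and 0.23 ± 0.15 for Slc30a1 (0.342), and the interval for Slc30a1 ran from 0.931-fold to 1.47-fold. With the length trend described further on removed, the log2 fold change of Mtf1 turned to −0.046 and that of Slc30a1 was 0.13.

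Slc30a5 (ENSMUSG00000021629, chromosome 13, 100802648 to 100833427) encodes a transporter that loads zinc into the early secretory pathway. It had 70.3 and 71.2 CPM in the dexamethasone libraries, against 69.7 and 72.5 CPM in the PBS libraries. The groups overlapped, with a log2 fold change of −0.0063 ± 0.13 (edgeR adjusted p = 0.981) and an interval for the fold from 0.808 to 1.23.

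Slc39a10 and Slc39a6 encode related zinc importers of the plasma membrane. Slc39a10 (ENSMUSG00000025986, chromosome 1, 46807544 to 46892852) had 49.2 and 52.3 CPM in dexamethasone replicates 1 and 2, against 41.5 and 34.9 CPM in PBS replicates 1 and 2. Both dexamethasone libraries were above both PBS libraries. The log2 fold change was 0.41 ± 0.15, with an unadjusted interval for the fold from 1.05 to 1.68, and it missed the threshold (edgeR adjusted p = 0.125). It ranged from 0.28 to 0.52 when each library was left out in turn, and did not pass in any of these. It passed when libraries of unlike number were paired as a block, a setting added after the data were seen (edgeR adjusted p = 0.0419), in a fit that called 9.65% of all genes higher. Slc39a6 (ENSMUSG00000024270, chromosome 18, 24579881 to 24603817) had 44.0 and 46.7 CPM in the dexamethasone libraries, against 44.0 and 40.1 CPM in the PBS libraries. Its lower dexamethasone library and its higher PBS library were both at 44.0 CPM, the dexamethasone library the higher by less than the last digit given, with a log2 fold change of 0.11 ± 0.14 (edgeR adjusted p = 0.654).

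Slc39a14 (ENSMUSG00000022094, chromosome 14, 70303469 to 70351425) encodes an importer of zinc, iron and manganese that inflammatory signals induce in liver. It had 39.0 and 32.5 CPM in the dexamethasone libraries, against 37.8 and 39.8 CPM in the PBS libraries, so that the groups overlapped. Its log2 fold change was −0.12 ± 0.15 (edgeR adjusted p = 0.653).

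Levels of different genes are compared here per kilobase of the listed length, as CPM per kilobase. Mt1 led with 115.7 ± 61.6 after dexamethasone and 137 ± 77.1 after PBS (SD, n = 2 each). Slc39a6 followed with 11.1 ± 0.465 after dexamethasone and 10.3 ± 0.667 after PBS, then Slc30a5 with 9.70 ± 0.0804 after dexamethasone and 9.74 ± 0.274 after PBS. The ranges of these 2 genes overlapped over the 4 libraries, so their order is not beyond the spread. Slc39a10 had 8.32 ± 0.360 after dexamethasone and 6.27 ± 0.765 after PBS, overlapping the range of Slc30a1 at 6.07 ± 0.344 after dexamethasone and 5.18 ± 0.0642 after PBS. Mtf1, at 4.09 ± 0.0946 after dexamethasone and 3.55 ± 0.289 after PBS, overlapped Slc39a14, at 3.39 ± 0.436 after dexamethasone and 3.68 ± 0.134 after PBS. Both were below the 5 genes before them in every library. Mt3 had 1.78 ± 0.0053 after dexamethasone and 2.44 ± 0.446 after PBS, and Mt2 had 1.03 ± 0.027 after dexamethasone and 1.11 ± 0.852 after PBS, the lowest on listed length. Divided by its unshared 156 bases alone, the mean of Mt2 would be 3.89 after dexamethasone and 4.2 after PBS. Few reads of 150 bases could lie wholly within that stretch, so these values give Mt2 no rank among the genes. The PBS mean also rests on libraries of 8 and 21 reads. The place of Mt2 thus depends on which bases could be counted as well. The listed length of each of the 9 genes equalled the union of its exons in GENCODE M21, which for Mt1 covers its introns, since one annotated transcript keeps them. On the 549 bases of its spliced transcript the level of Mt1 was 262.6 CPM per kilobase after dexamethasone and 310.9 after PBS.

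No gene of a wider zinc list passed either. The list of 30 genes holds every mouse metallothionein, SLC30 and SLC39 gene with Mtf1 and the zinc transporter gene Tmem163, and 25 of them were tested. By edgeR 0 of 25 were higher and 0 of 25 lower, with 2 at an unadjusted p under 0.05 (Slc39a10 and Slc39a7). DESeq2 and limma-voom called 0 as well, but DESeq2 gave no adjusted p for Mt2, Slc39a2 and Slc39a4, which could not be called. The median log2 fold change was −0.027 over the 25 and 0.011 over all genes, and the values ran from −0.52 to 0.41. Libraries did not overlap for 8 of the 25 that stood higher, where 30.8% of all genes did so, and for 3 of the 25 that stood lower, where 29.7% did.

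Slc39a7, whose product releases zinc from the endoplasmic reticulum, had 5.95 and 7.23 CPM in the dexamethasone libraries, against 8.06 and 10.9 CPM in the PBS libraries. Its log2 fold change was −0.52 ± 0.23 (edgeR adjusted p = 0.181), and it passed without PBS replicate 1 (−0.74, adjusted p = 0.0313). In that fit the lone PBS library was assumed to vary like the dexamethasone pair, and 10.4% of all genes were called lower. Slc30a6, the partner gene of Slc30a5 in the secretory pathway, had −0.30 ± 0.16 (adjusted p = 0.247). Slc30a7, a zinc transporter gene of the Golgi, had 0.27 ± 0.14 (0.251), and Slc39a9 had 0.20 ± 0.14 (0.379). None of these passed, and the values of Slc30a7 and Slc39a9 turned to −0.049 and −0.097 with the length trend described next removed. Slc39a1, an importer gene of wide expression, and Slc30a2, whose product loads zinc into vesicles, were the most abundant transporters of the list per kilobase, at 61.6 and 35.3 CPM per kilobase over the 4 libraries. The 5 genes not tested were Mt4 and Slc30a3, with 0 reads in every library, Slc30a8 and Slc30a10, with 1 read each in all, and Slc39a12. The last, named after its values were seen, had 9 and 13 reads after dexamethasone and 2 and 1 reads after PBS, and did not pass when no filter was applied (edgeR adjusted p = 0.139).

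**Figure D4:**
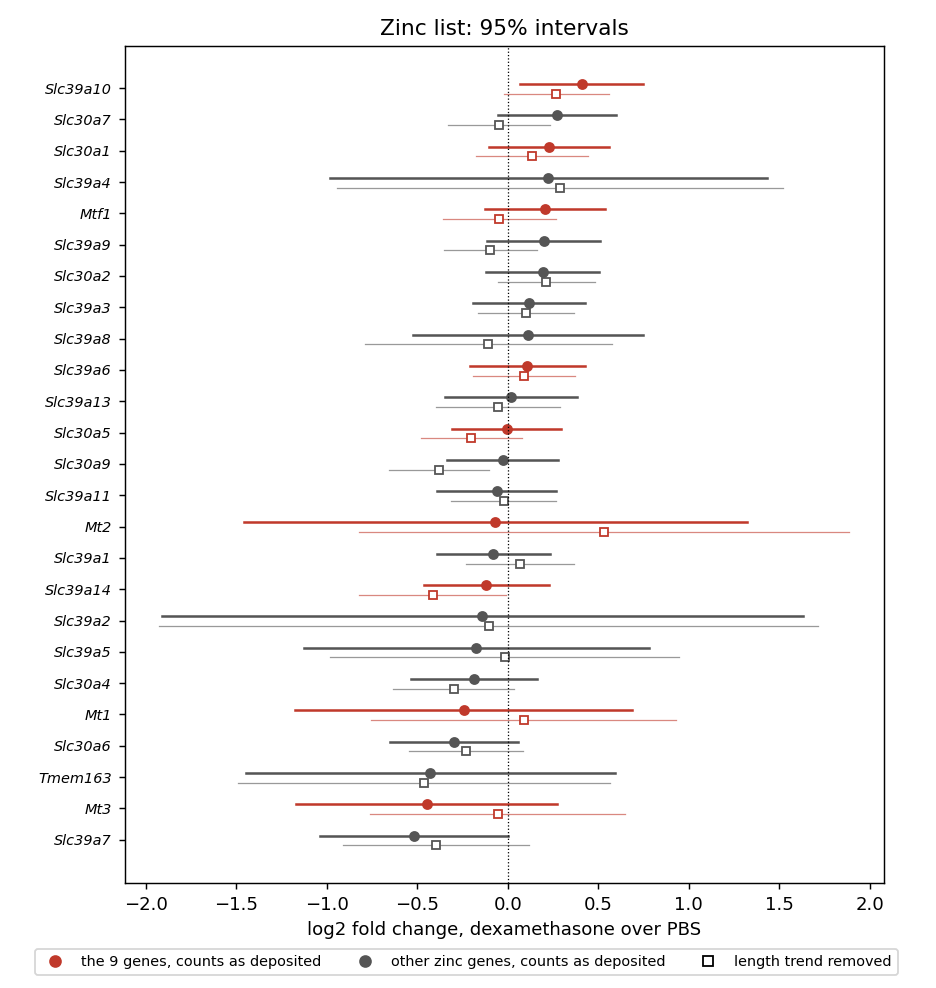
Log2 fold change of dexamethasone over PBS for the 25 zinc genes tested, with 95% intervals that are not adjusted for the number of genes. Filled circles give the counts as deposited, red for the 9 genes and grey for the others, and open squares the same with the length trend removed. As deposited, the intervals of Slc39a10 and Slc39a7 alone leave out 0. With the length trend removed, those of Slc30a9 (log2 fold change −0.38) and Slc39a14 (−0.42) alone do, and neither gene passed (edgeR adjusted p = 0.121 and 0.204).

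Gene length bears on these values, because fold changes in these libraries followed listed length. In dexamethasone replicates 1 and 2 the slope of log2 CPM deviation on log2 length was 0.0343 and 0.175. In PBS replicates 1 and 2 it was −0.0562 and −0.154. Relative to long genes, short genes thus stood higher in dexamethasone replicate 1 than 2 and in PBS replicate 2 than 1, the order of Mt1. Mt1, Mt2 and Mt3, with 1246, 588 and 1066 listed bases, fall in the decile of protein-coding genes with the shortest length (204 to 1767 bases), whose median log2 fold change was −0.42 and of which 4.21% were called lower and 0.702% higher. Slc39a14, with 10550 bases, falls in the decile of the longest, whose median was 0.33. With a linear length trend removed from each library, Mt1 stood at 0.087 ± 0.36 (edgeR adjusted p = 0.915), Mt2 at 0.53 ± 0.59 (0.628) and Mt3 at −0.055 ± 0.31 (0.936). The values of all 3 metallothionein genes were thus higher, and those of Mt1 and Mt2 were above 0, with an interval for Mt1 that reached 1.90-fold. The trend was removed by listed length, where the spliced transcripts of Mt1 and Mt3 hold only 549 and 536 bases. A fit on spliced length was not made. Slc39a14 stood at −0.42 ± 0.18 (0.204), Slc39a10 at 0.27 ± 0.12 (0.239) and Mtf1 at −0.046 ± 0.13 (0.871). In that fit too 0 of 9 genes passed, where 1.63% of all genes were called higher and 0.836% lower.

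**Figure D5:**
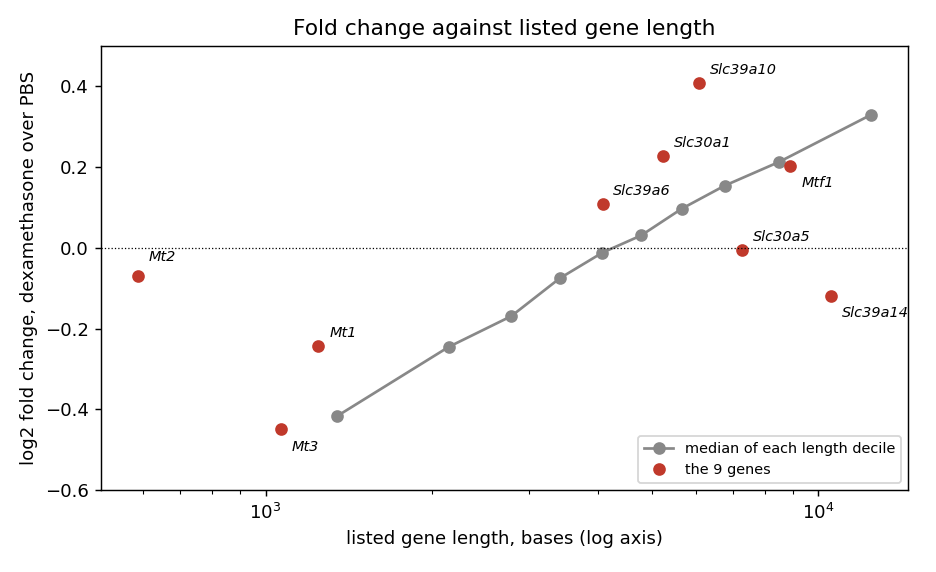
Log2 fold change of dexamethasone over PBS against the listed gene length on a log axis, for the 9 genes (red) and for the median of each length decile of protein-coding genes, placed at its median length (grey). The medians run from −0.42 to 0.33. Against the median of its own decile Slc39a14 lies farthest, at −0.45, then Mt2 at 0.35, Slc39a10 at 0.31 and Mt1 at 0.17. Slc30a5 lies at −0.16, Slc30a1 at 0.13, Slc39a6 at 0.12, Mt3 at −0.032 and Mtf1 at −0.0093.

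Genes that handle other metals or answer to metal stress, 22 in all and all tested, gave 1 higher and 1 lower gene, with 20 that did not pass and a median log2 fold change of 0.035. Over all genes 3.26% were called higher and 1.37% lower, so that 1 of 22 in each direction is near the background in this fit. It is no result about the list, and the counts under several other settings are given at the end. The 2 genes are named after their values were seen. Atp7a, the gene of a copper-exporting ATPase, rose, with a log2 fold change of 1.24 ± 0.15 (edgeR adjusted p = 0.00722), and it passed in every alternative, at 0.998 to 1.38. Ccs, the gene of the copper chaperone of superoxide dismutase, fell, with −0.73 ± 0.16 (adjusted p = 0.0365). The call of Ccs ended with the length trend removed (−0.35, adjusted p = 0.124) and without dexamethasone replicate 2 (−0.58, 0.199), and under the replicate block (−0.73, 0.0996).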

How the data were processed

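The deposited table gives raw read counts per gene for 4 libraries, with a listed gene length in bases. CASAVA 1.8, STAR 2.5, HTSeq 0.6.1 and mm10 (GRCm38) are named, per the submitters' processing notes, with no role or order. Column letters were read as D for dexamethasone and S for saline, and the number as the replicate. The 9 genes and all gene lists were chosen with earlier results of these data known. Genes passing filterByExpr (16027) were scaled by TMM and tested in R 4.3.3 with edgeR 4.0.16 (glmQLFit, then glmQLFTest), with group as the sole term, 2 residual degrees of freedom and Benjamini-Hochberg adjustment at 0.05. The standard error of a log2 fold change is its size over the square root of F. P-values measure the spread between pools of glands, not between mice. The length trend was a line of each library's log2 CPM deviation (prior count 2) on log2 listed length over protein-coding genes, removed as an offset. DESeq2 1.42.0, limma-voom (limma 3.58.1), other scalings and filters and leaving out each library were the alternatives. All 9 genes were named whatever their values, with the 4 further zinc genes of smallest p. Tests were tried on simulated data.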

Additional observations from a re-analysis of the deposited data

How the results depend on the processing

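With 2 libraries per group, few reads for Mt2 and Mt3 and a wide spread of Mt1, small changes could not be seen. The count of the 9 genes called was 0 in each direction under all alternatives except without PBS replicate 1 and the crossed pairing below, and over the single libraries left out it ran from 0 to 1 lower, and from 0 to 2 lower in the zinc list (Mt1 and Slc39a7). Values that changed sign, without a call, were Mt1 with the length trend removed (0.087) and over the libraries left out (−0.93 to 0.48, with 1 call); Mt2 with library totals (0.0303), the trend removed (0.53), the replicate block (0.037), limma-voom (0.18) and over the libraries left out (−0.75 to 0.99); Mtf1 with the trend removed (−0.046); Slc30a5 with library totals (0.087) and over the libraries left out (−0.053 to 0.011); and Slc39a14 over the libraries left out (−0.26 to 0.0077). The cause was not tested. Over all genes 523 were higher and 219 lower, against 893 and 180 with library totals, 1384 and 1329 with no filter, 262 and 134 with the trend removed, and 913 and 868 by DESeq2. Leaving out single libraries, where the lone library of a group was assumed to vary like the other pair, gave 337 to 1595 higher and 147 to 1747 lower. The replicate block, which rests on a shared number only, gave 244 higher and 89 lower, and 0 of the 9 genes. Deviations of same-numbered libraries from their group means correlated at −0.108 across genes, and a crossed pairing, added after the data were seen, called 1546 genes higher and 1465 lower, 1 of the 9 genes and 1 of the zinc list higher (Slc39a10), with Mt2 at 0.0498. Of the 22 other metal genes, where the main fit called 1 higher and 1 lower, DESeq2 called 3 and 5, against 5.70% and 5.42% of all genes. With no filter 5 and 5 were called, where 1384 and 1329 of 27040 genes were. The replicate block called 3 and 0, and the crossed pairing 3 and 4, where 1546 and 1465 of all genes were called in the latter. Library totals and limma-voom called 1 and 1, and the fit with the trend removed 1 and 0. With DESeq2, no filter and the crossed pairing the shares of the list were above those of all genes in both directions. Under the replicate block this held for higher genes only. These shares were not tested.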
